A study of Drosophila melanogaster with 12 samples.

Results

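The 6 genes described here, Mmp1, Mmp2, Timp, Sb, Np and stl, encode proteases of the extracellular matrix and an inhibitor of such proteases. They were grouped under disc eversion, in which an imaginal disc turns inside out. They were taken by symbol from the deposited table of normalised counts, where all 6 were found among 12216 genes. RNA had been sequenced from wing discs, the larval epithelial sacs that give rise to the adult wing and notum, of wildtype (w1118) Drosophila melanogaster. The discs were explanted 24 h after the L2-L3 moult and kept in Dye medium for 2.5 h with 0, 20, 200 or 2000 nM 20E (20-hydroxyecdysone, the active insect moulting hormone). Each dose had 3 libraries, so that 12 were compared, and the 0 nM libraries were the hormone-free controls. All discs shared the genotype, the stage and the culture, and dose was the only labelled difference. The labels do not say whether replicates came from separate cultures or animals, so p-values measure the spread between these libraries, which may be technical.

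A wing disc everts at the onset of metamorphosis, under a high pulse of ecdysone. Its stalk opens, the overlying peripodial epithelium is breached and withdrawn, and the basement membrane on the basal side and the apical matrix on the other are remodelled or removed. Matrix metalloproteases, which Drosophila encodes as Mmp1 and Mmp2, cut basement membrane proteins, and Timp is their tissue inhibitor. Sb (Stubble) and Np (Notopleural) are serine proteases anchored in the plasma membrane that act on the apical matrix, and Sb mutants have misshapen legs and wings. The product of stl (stall) is a secreted metalloprotease of the ADAMTS family, known from the ovary.

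Libraries held 9034719 to 27006374 reads, and a single read was worth 0.565 to 1.69 normalised counts. Markers of the wing disc were present in each library, with vg between 3897 and 5291 and nub between 3294 and 5727 normalised counts. In bulk samples, fewer cells of a type and less RNA per cell cannot be told apart. Of the 6 genes, 5 had at least 10 normalised counts in at least 3 libraries and were tested, together with 8455 genes in all, while stl stayed below that level. The words "rose" and "fell" are used for adjusted p-values under 0.05 from limma's moderated test, adjusted over all genes tested. Log2 fold changes were computed from normalised counts plus 1 and are given ± SE, with 3 libraries per dose.

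In the discs without hormone Np was a weakly expressed gene, and it had the strongest response of the 6. The 0 nM libraries held 200.3, 130 and 109 normalised counts of Np, and those with 20 nM held 508, 483 and 520. At 200 nM they held 1621, 1078 and 1456 normalised counts, and the 2000 nM libraries 2022, 1943 and 2196. The values of the 4 doses did not overlap at any step, so each library with more hormone stood above each library with less. Np rose 3.53-fold at 20 nM against 0 nM, a log2 fold change of 1.82 ± 0.18 with limma's adjusted p = 1.58e-05. It rose 9.57-fold at 200 nM (3.26 ± 0.18 log2) and 14.4-fold at 2000 nM (3.85 ± 0.18 log2, adjusted p = 1.08e-09). Between 20 and 200 nM it rose by a further 1.44 ± 0.18 log2 (adjusted p = 0.000120). The step from 200 to 2000 nM was 0.59 ± 0.18 log2 and was not called (adjusted p = 0.257, 95% interval 0.20 to 0.98 log2). Among all 8455 genes tested, Np had the 41st highest log2 fold change at 20 nM, the 49th at 200 nM and the 42nd at 2000 nM. Measured on the log2 scale, 47.3% of its difference between 2000 and 0 nM was present at 20 nM and 84.7% at 200 nM.

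Sb, the other membrane serine protease gene, was expressed at every dose and moved little. It stood at 712, 599 and 582 normalised counts without hormone and at 514, 451 and 453 with 20 nM. The 200 nM libraries held 510, 631 and 494 normalised counts, and with 2000 nM the values were 599, 511 and 517. All 20 nM libraries were below the 0 nM libraries, whereas those of both higher doses overlapped the 0 nM libraries. The log2 fold change of 20 against 0 nM was -0.41 ± 0.11 with limma's adjusted p = 0.0532 with a 95% interval of -0.65 to -0.17. This adjusted p ran from 0.0274 to 0.218 over the alternatives tried, and was under the threshold without 200 nM replicate 2 (0.0274), without 2000 nM replicate 1 (0.0492) and under 4 other settings. At 2000 against 0 nM the difference was -0.22 ± 0.11 log2 (adjusted p = 0.159) with a 95% interval of -0.46 to 0.02. Over all doses the moderated F test gave Sb adjusted p = 0.0747, while the authors' deposited table gives it an adjusted p-value of 0.0201. CG5903, a gene on the opposite strand that shares 807 exon bases with Sb, fell by 0.52 ± 0.09 log2 at 2000 nM, and without a stated strand setting their reads cannot be told apart.

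**Figure D1:**
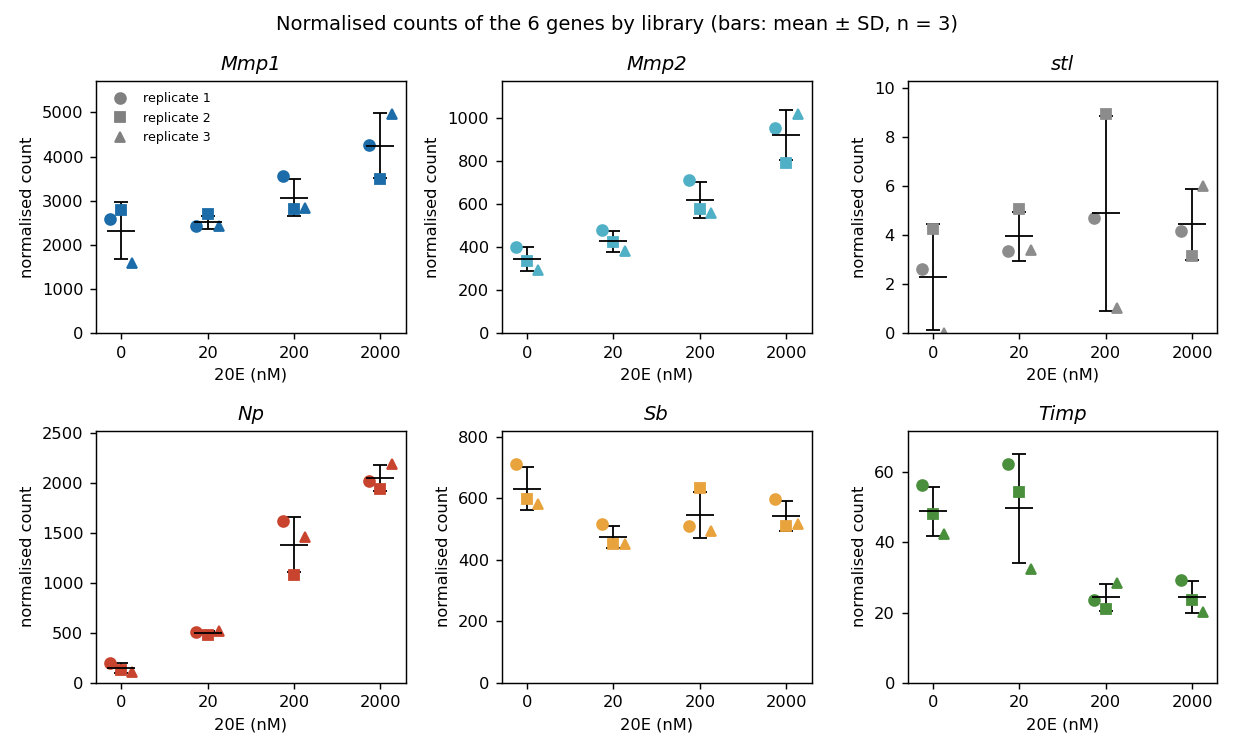
Normalised counts (vertical axes, each from 0) of the 6 genes at each 20E dose in nM (horizontal axes), 1 point per library with the mean and SD (n = 3) in black. Np climbs from 109 to 200.3 normalised counts at 0 nM to 1943 to 2196 at 2000 nM without overlap between neighbouring doses, Timp steps down between 20 and 200 nM, and stl stays below 9 normalised counts.

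Both matrix metalloprotease genes rose at 2000 nM, and Mmp2 also rose at 200 nM. Mmp2 encodes the metalloprotease tethered to the cell surface by a lipid anchor. The 0 nM libraries held 401, 337 and 291 normalised counts of Mmp2, and those with 20 nM held 477, 421 and 379. At 200 nM the values were 711, 578 and 558, and at 2000 nM 951, 789 and 1017. The 20 nM libraries overlapped the 0 nM libraries, and from there on the doses were separate. At 20 nM Mmp2 stood 0.32 ± 0.14 log2 above 0 nM and was not called (adjusted p = 0.347, 95% interval 0.02 to 0.61). It rose 1.80-fold at 200 nM (0.85 ± 0.14 log2, limma's adjusted p = 0.000385) and 2.68-fold at 2000 nM (1.42 ± 0.14 log2, adjusted p = 2.00e-06). These calls held in each alternative, with adjusted p-values up to 0.00307 and 7.74e-05.

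The step of Mmp2 from 20 to 200 nM, a rise of 0.53 ± 0.14 log2 (limma's adjusted p = 0.0268), was less firm. Its adjusted p ranged from 0.00570 to 0.126 over the alternatives. The call ended without 20 nM replicate 2 (0.0860) or replicate 3 (0.126), without 200 nM replicate 1 (0.112) or replicate 2 (0.0514), and without an intensity trend (0.0733). From 200 to 2000 nM Mmp2 differed by 0.58 ± 0.14 log2 without overlap of the libraries, and was not called (adjusted p = 0.139). Mmp2 shares 287 exon bases with asRNA:CR44069 on the opposite strand, which had at most 9.76 normalised counts in any library.

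Mmp1 encodes the metalloprotease that is mostly secreted, and it was the most abundant of the 6. Its 0 nM libraries held 2584, 2786 and 1582 normalised counts, against 2420, 2688 and 2423 at 20 nM. The 200 nM libraries held 3556, 2819 and 2829 normalised counts, and the 2000 nM libraries 4265, 3503 and 4967. The 3 hormone-free libraries were uneven, with replicate 3 well below the others, and all 2000 nM libraries lay above all 0 and 20 nM libraries. Mmp1 rose 1.87-fold at 2000 against 0 nM (0.90 ± 0.18 log2, limma's adjusted p = 0.00165), and without 0 nM replicate 3 the difference was 0.65 log2. At 20 nM the difference was 0.16 ± 0.18 log2 (adjusted p = 0.884, 95% interval -0.23 to 0.54). At 200 nM it was 0.44 ± 0.18 log2 and not called (adjusted p = 0.110, range 0.0398 to 0.438 over the alternatives), though without 0 nM replicate 2 it passed at 0.0398. Mmp1 also rose from 20 to 2000 nM, by 0.74 ± 0.18 log2 (adjusted p = 0.0111, range 0.000686 to 0.0557), a call that ended without 2000 nM replicate 3 (0.0557). It shares 284 exon bases with Pof on the opposite strand, and Pof had 244 to 342 normalised counts over the libraries.

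Timp, the inhibitor gene, went the other way. The 0 nM libraries held 56.3, 47.9 and 42.4 normalised counts, against 62.4, 54.3 and 32.5 at 20 nM. Values were 23.6, 20.9 and 28.4 at 200 nM, and at 2000 nM 29.2, 23.7 and 20.3. All 6 libraries of the higher doses were below all 6 of the lower doses. At 20 nM the difference was -0.02 ± 0.26 log2 (adjusted p = 0.996), with a 95% interval of -0.59 to 0.55 that holds changes of more than 0.5 log2 in both directions. Timp fell by 0.98 ± 0.26 log2 at 200 against 0 nM (limma's adjusted p = 0.0158) and by 0.98 ± 0.26 log2 at 2000 against 0 nM (adjusted p = 0.0119). The 200 and 2000 nM doses differed by 0.00 ± 0.26 log2 (adjusted p = 0.999, interval -0.57 to 0.57).

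The values of Timp rest on few reads, from 14 to 96 per library, with 155 reads over the 0 nM libraries and 91 over the 2000 nM libraries. Its fall at 2000 against 0 nM kept its call in each alternative, with adjusted p from 0.00618 to 0.0484. The fall at 200 against 0 nM ranged from 0.00832 to 0.0639 and ended when limma-voom was run on the reads (0.0638), or when 0 nM replicate 1 (0.0639) or 200 nM replicate 2 (0.0619) was left out. Timp also fell from 20 to 2000 nM (-0.96 ± 0.26 log2, adjusted p = 0.0233, range 0.00655 to 0.103). That call ended without 20 nM replicate 1 (0.103) or replicate 2 (0.0896), without 2000 nM replicate 3 (0.0870), and with only those doses fitted (0.0599). The fall from 20 to 200 nM had adjusted p = 0.0382, range 0.0109 to 0.155. It ended without 0 nM replicate 2 (0.0530), 20 nM replicate 1 (0.150) or replicate 2 (0.155), or 200 nM replicate 1 (0.0914), replicate 2 (0.139) or replicate 3 (0.0557), and under 4 other settings. Timp shares 249 exon bases with Syn on the opposite strand, and Syn had at most 1.69 normalised counts in any library.

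**Figure D2:**
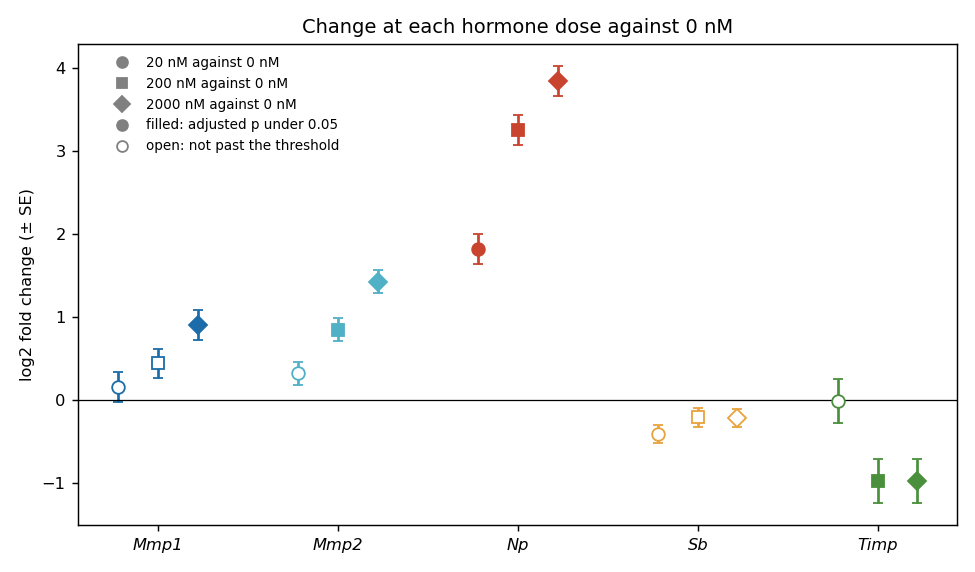
Log2 fold change ± SE (vertical axis) of the 5 tested genes at 20, 200 and 2000 nM against 0 nM, filled where limma's adjusted p was under 0.05. Np is called at all 3 doses, Mmp2 and Timp at 200 and 2000 nM, Mmp1 at 2000 nM alone, and Sb at none.

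Transcripts of stl were barely detected. Its reads numbered 2, 4 and 0 at 0 nM and 2, 9 and 5 at 20 nM. They numbered 3, 6 and 1 at 200 nM and 7, 2 and 8 at 2000 nM. The doses overlapped throughout. With the reads of a dose pooled, stl had 1.83 normalised counts without hormone (exact Poisson 95% interval 0.671 to 3.98) and 4.67 at 2000 nM (2.72 to 7.47). The ratio of 2000 to 0 nM was 2.56 with an exact interval of 0.961 to 7.91, which covers counting error only, so a difference was not detectable at this depth. In the authors' deposited table stl has an adjusted p-value of 0.867.

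The share of the 5 tested genes called can be set beside that of all genes. As the genes and lists were chosen with earlier results of these data known, such shares are descriptions only. At 20 against 0 nM 1 of the 5 was called, a rise, beside 4.51% of all genes tested, made up of 2.97% that rose and 1.54% that fell. At 200 against 0 nM it was 3 of 5, with 2 rises and 1 fall, beside 20.4% of all genes, of which 9.92% rose and 10.4% fell. At 2000 against 0 nM it was 4 of 5, with 3 rises and 1 fall, beside 31%, made up of 15.4% that rose and 15.5% that fell. From 20 to 200 nM 3 of 5 were called, 2 of them rises, beside 8% of all genes, with 4.23% higher and 3.76% lower. From 20 to 2000 nM 4 of 5 were called, 3 of them rises, beside 16.3%, with 8.3% higher and 8.04% lower. From 200 to 2000 nM limma called 0 of 5 beside 0.201% of all genes, with 0.166% higher and 0.0355% lower. At an unadjusted p under 0.05 there were 3 of 5 (Mmp1, Mmp2 and Np) beside 10.9% of all genes, and limma-voom called 0. The libraries did not overlap for 2 of the 5 genes at 20 against 0 nM (17.2% of all genes), for 4 at 200 against 0 nM (34.5%) and for 4 at 2000 against 0 nM (41.6%). With the F test over all doses 4 of 5 passed, beside 23.7% of all genes. All 5 passed, Sb included, with limma-voom (adjusted p of Sb 0.0460), without 200 nM replicate 2 (0.0352) and with the replicate number as a block (0.0414). The authors' deposited table puts 5 of the 6 under 0.05, beside 26% of the 9374 genes to which it gives an adjusted p-value, with adjusted p-values of 4.5e-142 for Np, 2.32e-32 for Mmp2, 0.00395 for Mmp1, 0.0089 for Timp and 0.0201 for Sb.

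Levels were compared between the genes per kilobase of annotated exon, with lengths from Ensembl 115. Without hormone Mmp1 led with 479 ± 133 normalised counts per kb (SD, n = 3), followed by Sb with 151 ± 17.0, Mmp2 with 67.7 ± 10.9, Np with 34.9 ± 11.4 and Timp with 30.7 ± 4.405. Only Np and Timp overlapped among these neighbours. With 20 nM, Np at 120 ± 4.53 per kb had reached Sb at 113 ± 8.64, and the libraries of the pair overlapped. With 200 nM, Np was second to Mmp1, at 330.1 ± 66.4 against 634 ± 87.3 per kb, and Sb (130 ± 17.9) and Mmp2 (122 ± 16.5) overlapped. With 2000 nM no neighbours overlapped, and the order was Mmp1 at 877 ± 151, Np at 489.6 ± 31.0, Mmp2 at 181 ± 23.2, Sb at 130 ± 11.8 and Timp at 15.3 ± 2.83. The expression of stl stayed last at each dose, at 0.503 to 1.07 per kb.

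**Figure D3:**
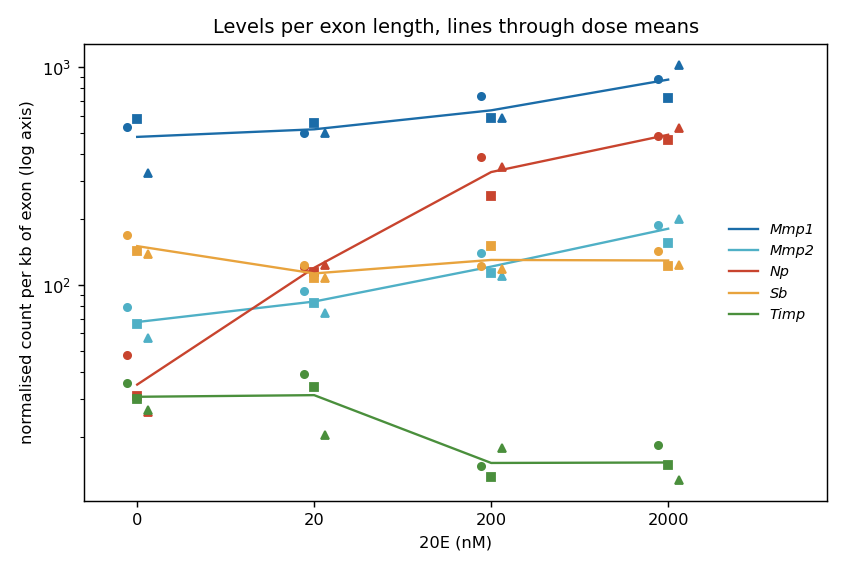
Normalised counts per kb of exon (log axis) against 20E dose in nM for 5 genes, with 1 point per library and lines through the means of 3. Np moves from 34.9 per kb, level with Timp, to 489.6 per kb, second to Mmp1, while Mmp2 crosses Sb between 200 and 2000 nM. stl, with a library at 0, is not drawn.

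The ratio of each metalloprotease to Timp was followed within libraries. The log2 ratio of Mmp1 to Timp in normalised counts was 5.50, 5.83 and 5.19 in the 0 nM libraries and 7.14, 7.15 and 7.87 in the 2000 nM libraries. It was 5.26, 5.60 and 6.18 at 20 nM and 7.18, 7.01 and 6.59 at 200 nM, so the 2 higher doses were above the 2 lower ones in each library. The difference of 2000 and 0 nM was 1.88 log2. For Mmp2 the log2 ratio to Timp was 2.81, 2.79 and 2.75 at 0 nM and between 4.98 and 5.58 at 2000 nM, a difference of 2.40 log2. The SD of the Mmp2 ratio was 0.03 at 0 nM, on 43 to 67 Timp reads per library, and 0.34, 0.32 and 0.34 at 20, 200 and 2000 nM. That of the Mmp1 ratio was 0.32 at 0 nM and 0.47, 0.30 and 0.42 at the same 3 hormone doses. Each SD rests on 3 libraries, and whether the spread differed between doses was not tested.

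The ratio of Mmp1 to Mmp2 was lower at 2000 nM by 0.52 log2, and that of Sb to Np by 4.06 log2. Sb exceeded Np 4.47-fold in normalised counts at 0 nM and stood at 0.265 of it at 2000 nM. Of the 5 pairs compared, these 4 had no overlap between the libraries of both doses. Each reached p = 0.1 in an exact two-sided permutation test over samples, the smallest p that 3 against 3 libraries allow, and 0.125 adjusted over the 5 pairs, so none passed 0.05. The fifth pair, Mmp1 and stl, differed by -0.09 log2 (exact permutation p = 0.9).

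**Figure D4:**
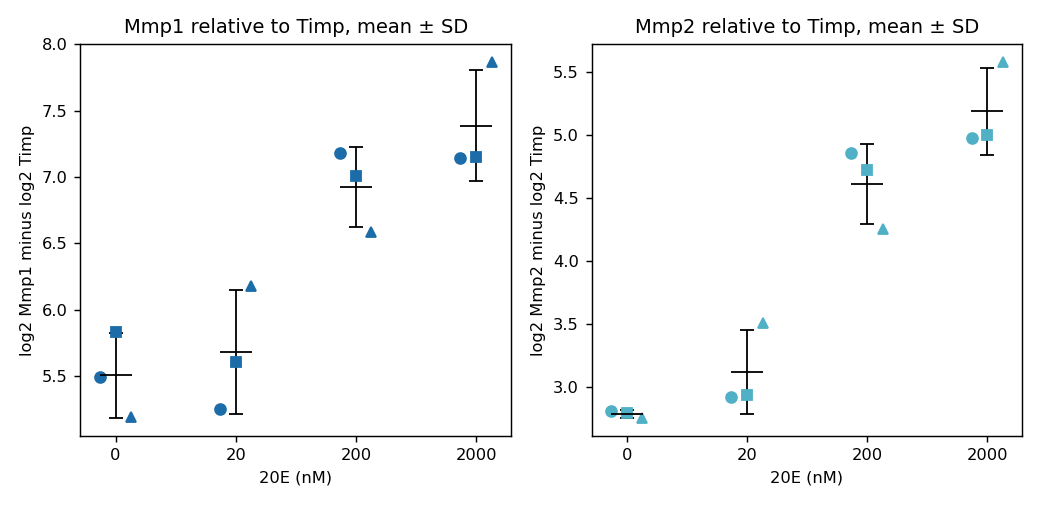
Log2 ratio of Mmp1 (left) and Mmp2 (right) to Timp within each library (vertical axes, which do not start at 0) by 20E dose in nM, with mean and SD (n = 3) and 1 marker shape per replicate number. In both panels the 200 and 2000 nM libraries lie above the 0 and 20 nM libraries.

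Other metalloproteases of the matrix and of the cell surface, from a list of 11 that also holds the ADAMTS-like Ppn, mostly rose with the hormone. Of 8 tested members 4 rose and 0 fell at 20 nM, 5 rose and 1 fell at 200 nM, and 7 rose and 1 fell at 2000 nM, each against 0 nM. Of all genes, 2.97%, 9.92% and 15.4% rose in these comparisons, and 1.54%, 10.4% and 15.5% fell. The rises on the list at 2000 nM numbered 5 to 7 with single libraries left out. The list's median was 1.27 log2 at 2000 nM beside -0.0040 for all genes. The smallest rises at that dose were those of kuz (0.57 ± 0.12 log2), Meltrin (0.38 ± 0.11) and Kul (0.32 ± 0.11), and the others were larger than the median. AdamTS-A, a secreted protease of the same family as stl, rose from 356 ± 27.8 to 4611 ± 403 normalised counts (SD, n = 3), or 12.9-fold (limma's adjusted p = 1.22e-12). Ppn (papilin), an ADAMTS-like protein of basement membranes, rose 9.11-fold, to 29827 ± 4324 normalised counts. tld (tolloid), whose product frees BMP ligands by cutting the antagonist Sog, rose 5.82-fold, and its relative tok 3.94-fold. The member that fell was AdamTS-B, from 2894 ± 223 to 2331 ± 38.3 normalised counts (-0.31 ± 0.06 log2). Its fall at 200 nM (-0.24 ± 0.06 log2, adjusted p = 0.0127) was lost without 0 nM replicate 2 or 200 nM replicate 3.

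Of 4 other serine proteases tested, 0 rose and 1 fell at 2000 nM, beside 15.4% of all genes that rose and 15.5% that fell. The gene that fell was ea (easter), known from the patterning of the embryo, at -1.13 ± 0.14 log2. Both flz and Corin lay near the filter, and their differences had an SE of 0.44 and 0.45 log2. The matriptase-like gene flz had 12.6 ± 3.9 normalised counts at 0 nM and 19.4 ± 9.21 at 2000 nM (adjusted p = 0.401), Corin 12.6 ± 8.11 and 8.67 ± 0.971 (adjusted p = 0.647), and teq 187 ± 49.5 and 198 ± 27.6 (adjusted p = 0.729).

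Of 16 tested inhibitors other than Timp 4 rose and 4 fell at 2000 nM, with a median of -0.15 log2, beside 15.4% of all genes that rose and 15.5% that fell. Reck, whose mammalian counterpart is a membrane-anchored inhibitor of matrix metalloproteases, rose from 173 ± 16.9 to 440.3 ± 48.9 normalised counts, 2.53-fold (1.34 ± 0.12 log2, limma's adjusted p = 1.15e-06). Among the serpin genes, which encode inhibitors of serine proteases, Spn28Dc rose by 0.80 ± 0.14 log2 and Spn42Dc fell by 1.22 ± 0.19 log2. Spn100A rose from 2.3 ± 1.47 to 26.1 ± 4.82 normalised counts, a base so low that its fold depends on the added 1. It reached the filter only through libraries with 200 or 2000 nM, and had to differ.

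**Figure D5:**
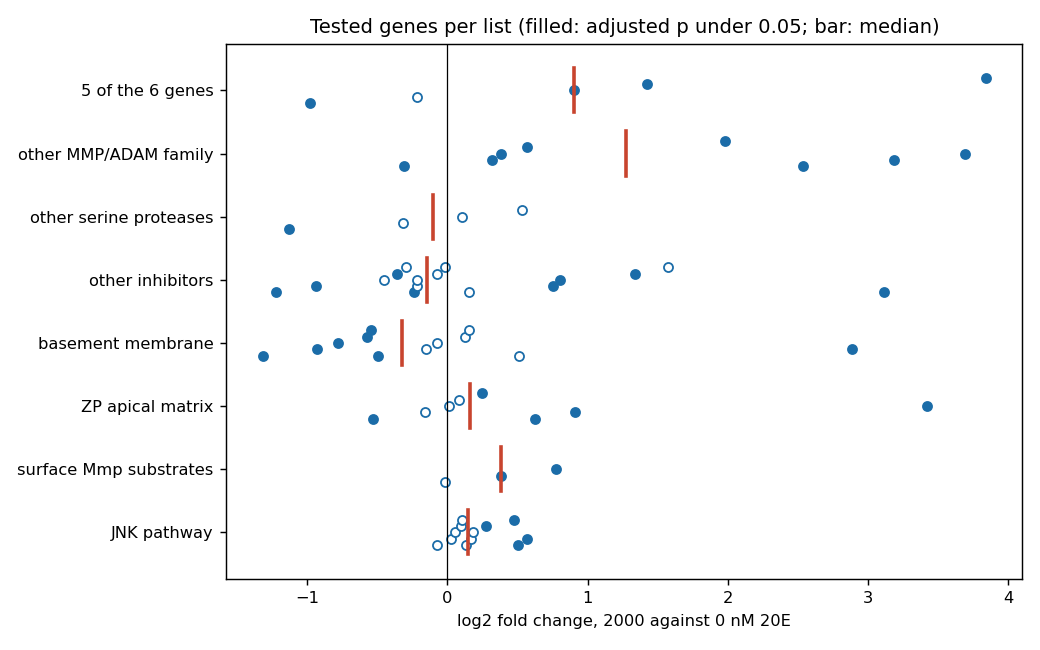
Log2 fold change at 2000 against 0 nM (horizontal axis) of each tested gene on 8 lists (rows), filled where limma's adjusted p was under 0.05, with the list median as a red bar. The lists drawn leave out the ecdysone-induced genes. Among the lists drawn, the other metalloproteases with the ADAMTS-like Ppn have the highest median (1.27), and the basement membrane list has the lowest (-0.33).

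The list of basement membrane genes held 1 rise and 6 falls among 12 tested at 2000 nM, with a median of -0.33 log2. In this comparison 15.4% of all genes rose and 15.5% fell. Mp, the multiplexin collagen gene, rose 7.41-fold (2.89 ± 0.14 log2). The laminin chain gene wb fell 2.50-fold, and the collagen IV genes vkg and Col4a1 fell by 0.93 ± 0.12 and 0.78 ± 0.09 log2. The rises numbered 2 under TMM scaling, with the replicate number as a block and with any of 6 libraries left out. The laminin gene LanA stood at 0.51 ± 0.19 log2 (adjusted p = 0.0537). Falls at 20 against 0 nM numbered 3 (wb, Col4a1 and vkg), beside 1.54% of all genes that fell in that comparison. They numbered 1 without the intensity trend, without 0 nM replicate 1 or replicate 3, or without 20 nM replicate 2 or replicate 3.

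Zona pellucida genes, whose products build the apical matrix on which Np acts in other epithelia, held 4 rises and 1 fall among 8 tested at 2000 nM, beside 15.4% and 15.5% of all genes. The rise of neo was 10.7-fold, from 944 ± 39.2 to 10134 ± 630 normalised counts, that of pio (piopio) 1.88-fold and that of mey 0.63 ± 0.08 log2. nyo fell by 0.53 ± 0.12 log2. dpy (dumpy), the giant protein of that matrix, stood at 15630 ± 4018 and 14070 ± 3828 normalised counts (adjusted p = 0.671). Of 3 listed surface proteins reported as Mmp substrates 2 rose at 2000 nM, NijA by 0.78 ± 0.11 log2 and the glypican gene dlp by 0.38 ± 0.10 log2, and 1 rose without 0 nM replicate 3 or 2000 nM replicate 3. The third, Fas2, stood at -0.02 ± 0.10 log2.

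The JNK pathway, known to drive disc eversion and Mmp1 transcription, held 4 rises and 0 falls among 12 tested at 2000 nM, beside 15.4% and 15.5% of all genes. They were kay and Jra, which encode Fos and Jun, by 0.57 ± 0.08 and 0.47 ± 0.13 log2, egr, a TNF ligand gene, by 0.51 ± 0.12, and bsk, the kinase gene, by 0.28 ± 0.06. The feedback phosphatase gene puc, often used as a reporter of the pathway, stood at 853 ± 137 and 920 ± 221 normalised counts (adjusted p = 0.723). At 200 nM 2 of the 12 rose, beside 9.92% of all genes, and 1 without 0 nM replicate 3 or 200 nM replicate 1. All 4 listed ecdysone-induced eversion genes, br, ImpE1, ImpE2 and ImpE3, rose at 2000 nM, with a median of 5.37 log2, and the smallest of these rises was 4.37-fold, for ImpE3.

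For each of the 4 genes that passed the F test, the 3 genes with the most similar profile over the 12 libraries were taken by Pearson's r of log2 values, among 4616 or 4617 named genes with a mean of at least 50. These r are descriptions, since the libraries share doses and depth. Mmp1 lay closest to scb, an integrin alpha subunit gene (r = 0.984), drl, a Ryk receptor gene (0.966), and dlp (0.964). After the dose means were removed, r with scb was 0.983, so the replicates of both genes deviated from their dose means together. As scb was picked by its r over these same libraries, this value is no separate support. Mmp2 lay closest to milt (0.989), ena, which encodes an actin regulator (0.984), and nkd, a Wnt feedback gene (0.983). Np lay closest to Alh (0.994), Ppn (0.993) and jing, a zinc-finger gene (0.990). Timp lay closest to Hmr (0.937), NSD (0.927) and pinta (0.923), whose log2 fold changes at 2000 nM were between -0.33 and -0.47.

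Wing discs carry tracheal cells and adult muscle precursors, and blood cells or fat body can cling to them. The counts of called markers at 2000 against 0 nM stand beside 15.4% of all genes that rose and 15.5% that fell. Of 6 wing disc markers 4 (nub, ap, wg and Dll) rose at 2000 against 0 nM. The list summed to 22710 to 24907 normalised counts at 0 nM and 31088 to 33881 at 2000 nM. Of 5 tracheal markers 1 (trh) rose and 2 (serp and verm) fell at 2000 against 0 nM, and their summed level was 19777 to 22223 normalised counts at 0 nM and 15844 to 16209 at 2000 nM. Of 6 muscle precursor markers 2 (how and zfh1) rose and 2 (htl and twi) fell, with sums of 4501 to 4782 and 7521 to 9299, and the mean of how was 2072 and 6172. Of 3 tested neuron and glia markers elav rose, with sums of 558 to 766 and 871 to 1064. Blood cell markers summed to 15.2 to 74.6 and 26.9 to 101 normalised counts. Hml, the 1 of them tested, was not called and held 10.1 to 84.1 over the 12 libraries, with a median of 56.6. NimC1, eater and He were at 0 in some libraries and at most 6.32. Fat body markers summed to 45.8 to 1359 at 0 nM and 64.4 to 139 at 2000 nM, and of 5 tested Fbp1 rose from 2.83 ± 2.68 to 19.3 ± 8.49, reaching the filter only through libraries with hormone. The part of these cells in the changes of Mmp1, Mmp2, Np and Timp was not tested.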

How the data were processed

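Per the labels' protocols, total RNA (RNeasy) went into directional, poly(A)-selected libraries. The submitters' processing notes list DESeq2 1.32.0, Subread 2.0.1, SAMtools 1.13 and HISAT2 2.1.0. Strand setting and genome build were not given in the sources used here and coordinates are left out. The deposited values are gene counts that the authors divided by 1 size factor per library (read as signal: in each library all values are whole multiples of 1 step within 0.001 reads). The authors also deposited a mean, a log2 fold change of 2000 against 0 nM with its SE, a score for a test over the doses, and its p-value (chi-square, 3 degrees of freedom) and adjusted p-value. Genes with at least 10 normalised counts in at least 3 libraries were kept (8455). Log2(value + 1) was fitted with limma 3.58.1 in R 4.3.3, with 1 mean per dose, an intensity trend and 8 residual degrees of freedom, and two-sided p-values were adjusted by Benjamini-Hochberg. The fit was tested on simulated data in which all genes shared the same dispersion, so that test does not cover genes whose libraries spread more widely. Symbols are those of the table, exon lengths and overlaps come from Ensembl 115, and 12167 of 12216 identifiers matched it. The listed names dp, kul and Tequila were read as dpy, Kul and teq, and 10 listed names had no row. The genes and lists were chosen with earlier results of these data known. Named besides the 6 genes are for each list the up to 4 genes of lowest adjusted p at 2000 against 0 nM, further called or near-threshold members named after their values were seen, and the 3 nearest profiles per gene. 1 further list is not reported here. The main fit did not treat replicate numbers as pairs, and whether they pair the libraries was not tested. Of 18 same-numbered pairs 7 deviated together with a correlation over 0.1 (median r 0.0567), and of 36 with different numbers 7 did (median r -0.0471). Alternatives were other pseudocounts, filters, scalings, fits and left-out libraries. Depth sets the precision, and intervals on reads cover counting error only.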

Additional observations from a re-analysis of the deposited data

How the results depend on the processing

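The count of genes called among the 6 at 2000 against 0 nM was 4 under each alternative run. At 20 against 0 nM it was 1, and 2 with a filter of 50, with only the doses compared, with the replicate block and with limma-voom, Sb being the gene gained, and 1 to 2 with single libraries left out. It ranged from 1 to 3 for 20 to 200 nM, from 2 to 4 for 20 to 2000 nM and from 2 to 4 for 200 against 0 nM with single libraries left out. With the replicate block 1 gene, Mmp2, was called from 200 to 2000 nM in place of 0. This paired fit, whose pairing was not tested, gave Mmp2 limma's adjusted p = 0.0349 (range 0.0349 to 0.47 over the alternatives). Of all genes, 17 were called in that comparison, 46 with the replicate block, 1 without the intensity trend and 0 to 18 with single libraries left out, the 0 without 200 nM replicate 3 or 2000 nM replicate 1. Of 630 recomputed log2 fold changes of the tested genes, 587 kept their direction and call, 23 lost the call, 8 gained it and 12 changed sign, none of them called before or after. The sign changes were those of Mmp1 at 20 against 0 nM (-0.10 to 0.31 with single libraries left out), Timp at 20 against 0 nM (-0.20 to 0.26), and Timp (-0.13 to 0.12) and Sb (-0.077 to 0.11) at 2000 against 200 nM. For that last comparison Timp was also at -0.0018 under TMM scaling and -0.011 with limma-voom, and Sb at 0.021 with limma-voom. The log2 difference of Mmp1 and stl changed sign to 0.49 with a pseudocount of 5 and ranged from -0.43 to 0.36 with single libraries left out, as 0.36 without 0 nM replicate 3, where stl had 0 reads. TMM scaling moved the median of all genes by at most 0.0056 log2. The count tests planned (edgeR and DESeq2) were not run. Limma-voom on the reads recovered per library and a fit with no intensity trend were added after seeing the data.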
